A study of Homo sapiens with 8 samples.

Results

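The cytosolic ribosomal protein genes were taken as the genes whose array name is RPL or RPS followed by a number and at most a letter A or X, together with RPLP0, RPLP1, RPLP2 and RPSA, leaving out pseudogenes, names ending in L and the RPS6K kinases. 75 genes met this rule, of 43317 named genes on the array: 30 of the small 40S subunit, 42 of the large 60S subunit and 3 of its P stalk. RPL10 and RPSA were not analysed here, because no probe carried these names. Each of 8 arrays compared treated cells (Cy5) with mock cells of the same line (Cy3), and the mock was labelled as not transfected. Bisamide, a small-molecule inhibitor of pirin (PIR), was given to PC3 prostate cancer cells for 24 h or 48 h, although the labels list it as a transfection and give no dose. The other 6 arrays compared cells transfected with a mature miRNA. C4-2 prostate cancer cells received miR-199-3p and PC3 cells miR-125b-1-3p, 786-O renal cancer cells received either strand of miR-532 (5p or 3p), and T24 bladder cancer cells either strand of miR-140. Every group was 1 array of 1 established line, with no dye swap and no lipid-only control, so treatment, dye and transfection itself cannot be told apart and no value below has a replicate or a test. The names of the arrays give both 786-O arrays a common mock number, and both T24 arrays too, so those pairs may share their control RNA.

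Ribosomal proteins and ribosomal RNA form the small subunit, which decodes the mRNA, and the large subunit, which joins amino acids. Cells make these proteins in matched amounts, and their mRNAs are among the most abundant of a growing tumor cell. Most start with a 5′ terminal oligopyrimidine (TOP) tract, a C followed by further C or T bases at the very first position of the mRNA, through which mTOR and LARP1 control their translation. Free ribosomal proteins such as RPL5 and RPL11 bind MDM2 and stabilize p53 when ribosome assembly fails.

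The start sites of these genes are shown first, because the TOP tract is the sequence feature they share and the rule did not use it. Of the 75 genes, 60 had a start in the RefSeq promoter table (GRCh38.p14), and 44 of these (73.3%) had a start at which a C was followed by at least 4 bases that were all C or T, against 5.14% of the 27305 genes in the table. Each line gives 10 bases before the start and 20 from the start on, with the tract in capitals. The first 8 genes are members described below that have the tract, and RPL6 and RPS4X are members described below whose listed starts lack it.
RPS6 (chr9:19380217-19380246, minus strand): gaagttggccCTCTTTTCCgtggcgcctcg
RPL29 (chr3:51995876-51995905, minus strand): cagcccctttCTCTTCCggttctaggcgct
RPL24 (chr3:101686699-101686728, minus strand): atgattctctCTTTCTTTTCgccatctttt
RPS18 (chr6:33272065-33272094, plus strand): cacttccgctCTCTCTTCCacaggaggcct
RPL12 (chr9:127451387-127451416, minus strand): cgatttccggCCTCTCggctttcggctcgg
RPL26 (chr17:8383174-8383203, minus strand): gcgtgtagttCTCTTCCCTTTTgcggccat
RPLP0 (chr12:120201092-120201121, minus strand): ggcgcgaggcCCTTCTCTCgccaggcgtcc
RPL31 (chr2:101002279-101002308, plus strand): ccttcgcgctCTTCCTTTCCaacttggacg
RPL6 (chr12:112409266-112409295, minus strand): gacggcgcgtgcactgtgttcctggtcctg
RPS4X (chrX:72277229-72277258, minus strand): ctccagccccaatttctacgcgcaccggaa

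The miRNAs that were transfected are given next with the seed, bases 2 to 8, in capitals, from the same RefSeq release. The label miR-199-3p was matched to the miR-199a-3p entry.
miR-199-3p: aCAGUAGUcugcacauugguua
miR-125b-1-3p: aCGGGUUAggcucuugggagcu
miR-532-5p: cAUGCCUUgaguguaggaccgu
miR-532-3p: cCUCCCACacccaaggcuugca
miR-140-5p: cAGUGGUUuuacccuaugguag
miR-140-3p: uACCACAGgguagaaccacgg
The 6 seeds all differ from each other, so both strands of a precursor have seeds of their own.

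Of the 75 genes, 74 were well above background in both channels of all 8 arrays. The exception was RPL27A, a 60S protein gene with a single probe, whose mean log2 intensity was 6.07. The 158 probes of the members held between 11.46% and 16.9% of the background-subtracted Cy3 signal and 12.2% to 19.7% of the Cy5 signal, and none of their spots was saturated. Spots of the same probe on the same array differed with an SD of 0.039 to 0.053 in log2 ratio, which covers the measurement on the array and not the spread between cultures. Line markers partly fitted the labels. KLK3, the prostate-specific antigen, had a raw Cy3 signal of 13592 in C4-2 and was not above background elsewhere. PAX8, a renal lineage factor, read 235 and 239 in 786-O mocks but 390 and 423 in T24 mocks, and CA9 was not above background in any mock.

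After loess, a local regression that centres the ratio along intensity, the median ratio of the ribosomal protein mRNAs lay close to 0 on all 8 arrays. The members took part in that fit, so a median near 0 is in part set by it. It cannot show that the set as a whole kept its mock level, and medians without loess are given below. The median log2 ratio of treated over mock cells was 0.12 with bisamide for 24 h and 0.19 for 48 h. The C4-2 array of miR-199-3p gave 0.02 and the PC3 array of miR-125b-1-3p 0.00. In 786-O it was 0.03 for the 5p strand of miR-532 and 0.14 for its 3p strand. In T24 it was 0.14 for the 5p strand of miR-140 and 0.07 for its 3p strand. The medians over all genes measured on the same arrays lay between -0.00 and 0.02. Bisamide for 48 h was the array on which the set was most uniform in sign, with 75 of 75 members above 0, against 54.3% of all genes and 68.7% of 134 other genes of the same brightness. At 24 h of bisamide 71 of 75 were above 0, against 54.2% of all genes and 69.4% of the equally bright genes. Both counts depended on the scaling. With the scanner's own ratio 63 were above 0 at 48 h and 56 at 24 h. After the median of the equally bright genes was subtracted, 66 and 48 were. The other ways of scaling the arrays kept 75 at 48 h and gave 72 to 75 at 24 h.

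Few members passed a log2 ratio of 0.5 in either direction. With bisamide for 24 h 0 members were below -0.5, against 0.4% of all genes, and 0 were above 0.5, against 1.05%. With bisamide for 48 h 0 were below, against 0.878%, and 1 was above (RPS18), against 0.915%. With miR-199-3p 0 were below, against 2.73%, and 0 above, against 1.76%. With miR-125b-1-3p 1 was below (RPL6), against 0.883%, and 0 above, against 1.77%. With miR-532-5p 0 were below, against 3.67%, and 2 above (RPS2 and RPL31), against 3.6%. With miR-532-3p 0 were below, against 3.84%, and 3 above (RPL12, RPL31 and RPL23), against 1.71%. With miR-140-5p 0 were below, against 2.89%, and 1 above (RPL23), against 1.74%. With miR-140-3p 0 were below, against 1.09%, and 0 above, against 0.998%. With 75 members, 1 gene is 1.33% of the set, so none of these counts but the 3 with miR-532-3p (4%) and the 2 with miR-532-5p (2.67%) amounts to more than a single gene.

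**Figure D1:**
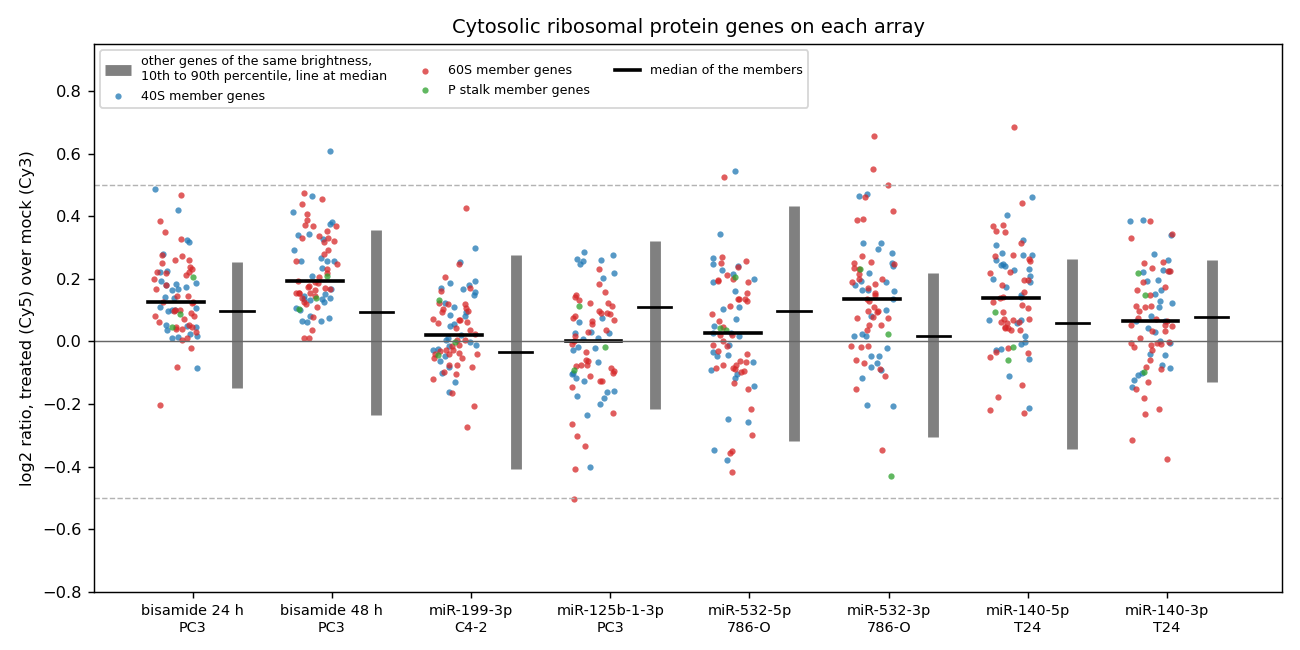
Log2 ratio of treated over mock cells (vertical axis) of the 75 ribosomal protein genes on each of the 8 arrays, 1 point a gene, coloured by subunit, with a black bar at their median. Grey bars span the 10th to 90th percentile of 134 other genes of the same brightness and dashed lines mark 0.5 and -0.5. All points of bisamide 48 h lie above 0, and the points spread most on the miR-532 arrays.

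The SD of the members' log2 ratios was smaller than that of other bright genes on every array. It was 0.13 at both bisamide times, against 0.20 and 0.28 for the 134 other genes of the same brightness. On the miR-199-3p array it was 0.12 against 0.33, and on the miR-125b-1-3p array 0.17 against 0.23. The 786-O arrays gave 0.19 against 0.33 (miR-532-5p) and 0.20 against 0.24 (miR-532-3p), and the T24 arrays 0.17 against 0.28 (miR-140-5p) and 0.16 against 0.18 (miR-140-3p). By SD the gap was widest in C4-2 with miR-199-3p and narrowest with miR-140-3p and miR-532-3p. The interquartile range, which leaves out the extreme genes, did not separate the groups on those 2 arrays in the same way, since it was 0.24 for both with miR-532-3p and 0.23 for members against 0.21 with miR-140-3p.

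Because these are some of the brightest genes on the array, the trend of the ratio with intensity was examined on its own. Before loess, the local regression that centres the ratio along intensity, the members' median was between 0.98 and 1.39 on 7 arrays and 0.03 on the miR-532-5p array. The ratio of other genes climbed with brightness in the same way. After loess a part of that climb was left at the top on some arrays. Among other genes of log2 intensity 15 to 15.5 in PC3, the median was 0.20 with bisamide for 24 h, 0.34 for 48 h and 0.34 with the miRNA. In the brightest step with enough genes it was 0.14 and 0.16 in T24 (5p and 3p strand), 0.19 and 0.04 in 786-O (5p and 3p strand) and -0.02 in C4-2, where no climb was left. Within the members, the 25 brightest had a higher median than the 25 dimmest on all 8 arrays, for example 0.32 against 0.14 with bisamide for 48 h and 0.21 against -0.08 with miR-532-5p.

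**Figure D2:**
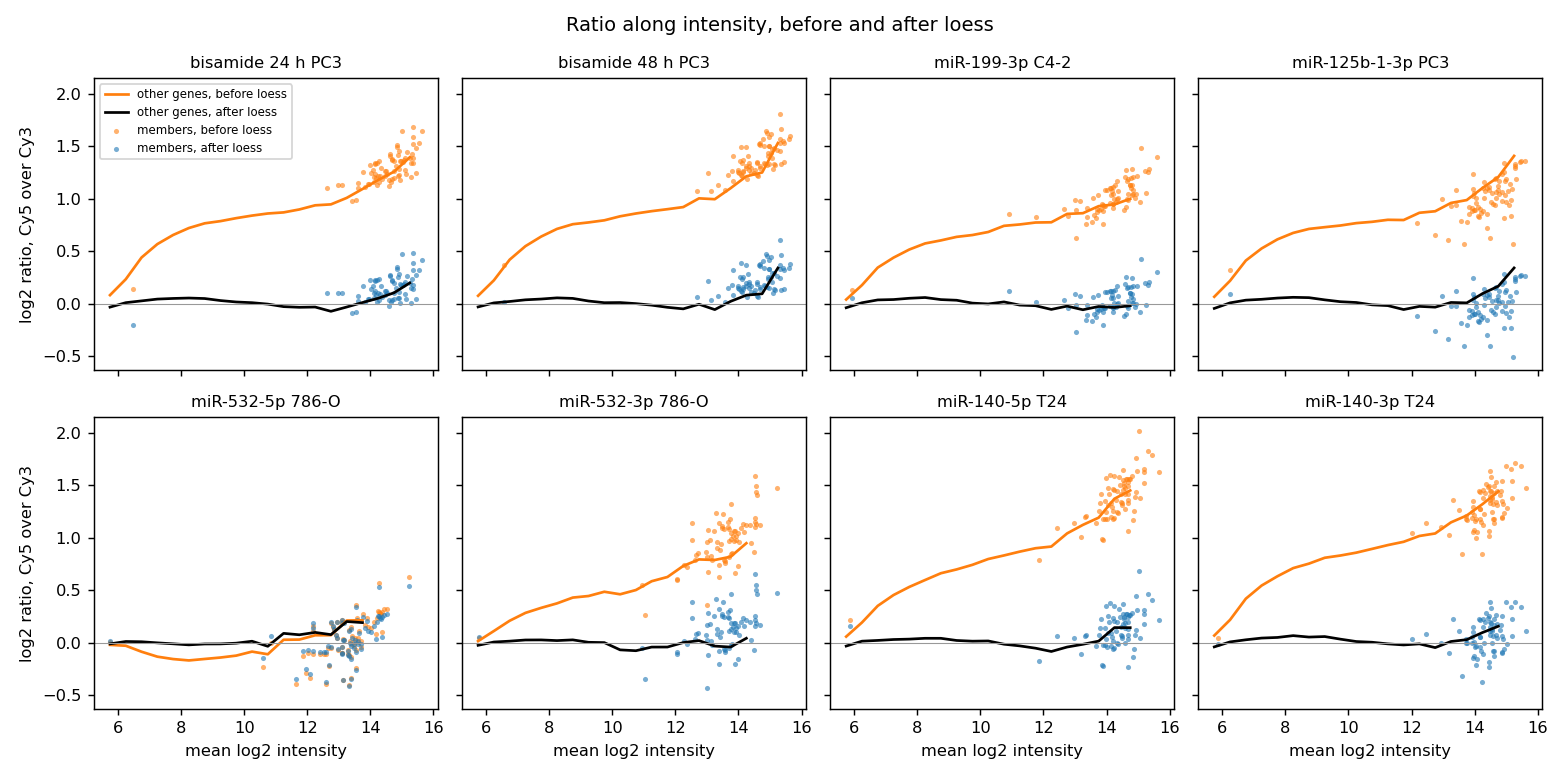
Log2 ratio of Cy5 over Cy3 (vertical axis) against mean log2 intensity (horizontal axis) on each array, before loess in orange and after loess in black and blue. Lines join the medians of all other genes in steps of intensity with at least 20 genes, and points are the 75 members. The members sit at the bright end, where the line bends upward after loess on the PC3 and T24 arrays and in part on the miR-532-5p array.

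The distance of the members from equally bright genes was steadier than their median. This is in part set in advance, because a change of scaling moves genes of like brightness together. The equally bright genes share the members' range of brightness but were not matched within it. Whether the distance still holds part of the intensity trend was not tested. Bisamide for 48 h left the members 0.10 above the equally bright genes, and this distance was 0.09 to 0.11 over 6 ways of scaling the arrays. It was 0.12 for miR-532-3p (range 0.12 to 0.16), 0.08 for miR-140-5p (0.05 to 0.12), 0.06 for miR-199-3p (0.05 to 0.08) and 0.03 for bisamide at 24 h (0.03 to 0.05). Members were below the equally bright genes on the miR-125b-1-3p array, at -0.11 (-0.11 to -0.09), and on the 786-O array of miR-532-5p, at -0.07 (-0.08 to -0.05). With miR-140-3p the distance was -0.01 and its sign depended on the scaling (-0.03 to 0.03). The median itself turned below 0 with the scanner's own ratio for 3 miRNAs, the PC3 array of miR-125b-1-3p (-0.08), the miR-532-5p array (-0.10) and the miR-140-3p array (-0.03), and for miR-532-5p also without background correction (-0.03) and with offset 0 (-0.02). Centring each array on its median, without loess, put the members at 0.93 to 1.34 on 7 arrays, while it moved the median of all genes to 0.17 to 0.45 there and that of the equally bright genes to 0.81 to 1.23.

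Under bisamide the higher members were spread over both subunits. RPS18, which sits in the head of the 40S subunit, had the highest ratio at both times, 0.49 at 24 h and 0.61 at 48 h. It read 0.18 in C4-2 (miR-199-3p), 0.22 in PC3 (miR-125b-1-3p), 0.27 and 0.46 in 786-O (5p and 3p strand of miR-532) and 0.31 and 0.22 in T24 (5p and 3p strand of miR-140). Its brightest probe (GRCh37 chr6:33244222-33244279) stood above its other 2 probes on every array, and those probes gave 0.15 and 0.19 at 24 h of bisamide and 0.32 and 0.34 at 48 h. They were near or below 0 on most miRNA arrays, down to -0.17 with miR-199-3p, so all 3 probes were highest with bisamide for 48 h.

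RPL12, which forms the base of the stalk together with RPLP0, was 0.47 with bisamide for 24 h and 0.44 for 48 h on a single probe. It was 0.16 in C4-2, 0.02 in PC3 with the miRNA, 0.26 and 0.65 in 786-O (5p and 3p strand) and 0.06 and 0.08 in T24 (5p and 3p strand). It was thus high on 3 arrays and near 0 on 3 others. RPL13A, a 60S protein often used as a reference gene, was 0.33 and 0.47 with bisamide for 24 h and 48 h, and its 2 further probes gave 0.19 and 0.30 at 24 h and 0.30 and 0.41 at 48 h. RPS28, a small 40S protein near the mRNA exit, was 0.32 and 0.46, and its other probe gave 0.21 and 0.30. RPS2 was 0.42 and 0.38, with 0.09 and 0.11 on its next probe and -0.03 and -0.05 on its dimmest. RPL8, which lies close to the catalytic center, was 0.39 and 0.33, and was -0.23 in the same line with miR-125b-1-3p.

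At the low end under bisamide, RPL17, which lines the peptide exit tunnel, was -0.08 at 24 h and 0.01 at 48 h, but its other 2 probes were above 0, with 0.18 and 0.02 at 24 h and 0.24 and 0.12 at 48 h. RPS9, a 40S protein needed early in assembly, was -0.09 and 0.08. The faint RPL27A was -0.20 and 0.01, and RPL22 was 0.10 and 0.03. Of these 4 genes RPL22 alone was lower at 48 h than at 24 h. RPS6, the substrate of the S6 kinases and not among the low members, was 0.17 and 0.21.

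**Figure D3:**
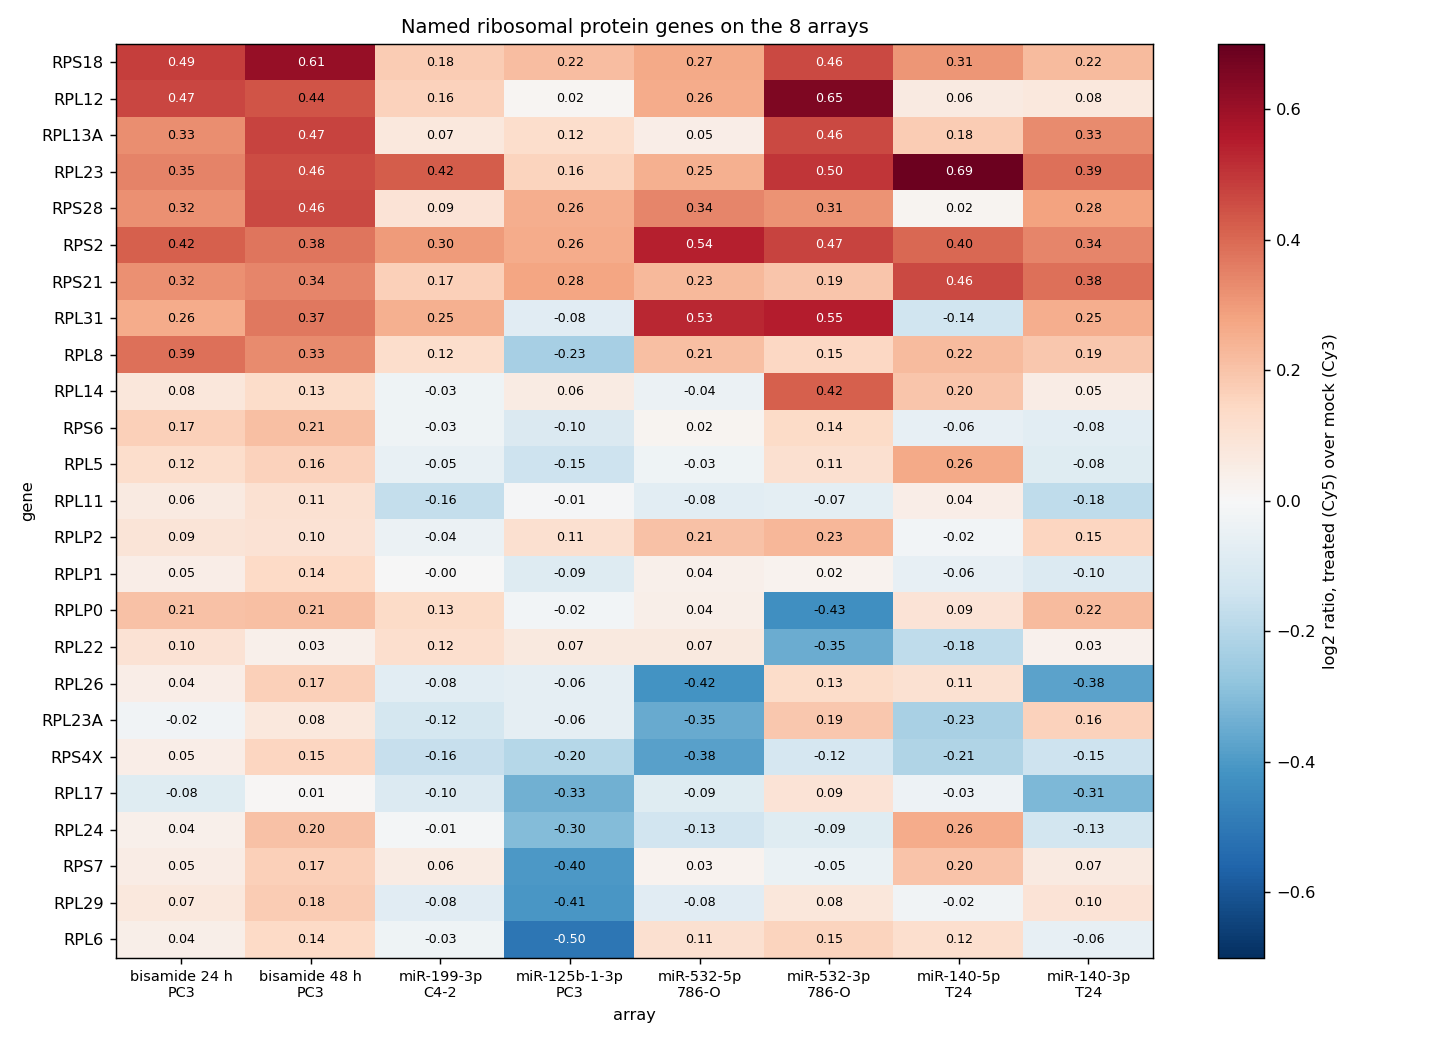
Log2 ratio of treated over mock cells of 25 ribosomal protein genes (rows) on the 8 arrays (columns), each cell coloured and printed with its value. RPL6, RPL29, RPS7, RPL24 and RPL17 are low with miR-125b-1-3p, RPLP0 and RPL22 with miR-532-3p, and RPL26, RPL23A and RPS4X with miR-532-5p.

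With miR-125b-1-3p in PC3 a small group of members was lower in treated cells, in most cases on every probe. Among the 134 equally bright genes on this array the 10th percentile was -0.21, and 1 gene was below -0.5. A lower tail of about that size is therefore not particular to the members. RPL6, a 60S protein, read 0.04 and 0.14 with bisamide for 24 h and 48 h, -0.03 with miR-199-3p and -0.50 with miR-125b-1-3p. In 786-O it read 0.11 (5p strand) and 0.15 (3p strand), and in T24 0.12 (5p strand) and -0.06 (3p strand). The array of miR-125b-1-3p was therefore the only 1 of the 8 on which RPL6 was under -0.1, and its second probe gave -0.30 there against 0.05 to 0.40 on the others. RPS7, which binds MDM2 and acts in 40S assembly, was -0.40 with miR-125b-1-3p and -0.50 on its other probe. Its values elsewhere ran from -0.05 to 0.20.

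RPL29, a 60S protein, was -0.41 with miR-125b-1-3p, and its further 3 probes gave -0.43, -0.42 and -0.31. The other 7 arrays gave RPL29 values from -0.08 to 0.18 on the brightest probe. RPL24, which takes part in a bridge between the subunits, was -0.30 and -0.39 on its 2 probes, and RPL17 was -0.33 on its brightest probe and -0.10 and -0.21 on the others. RPL18 was -0.26 on its only probe. RPL8 was -0.23 and RPS25, a 40S protein used by viral internal ribosome entry sites, was -0.23. The log2 Cy3 level of RPS25 in the mock of this array was 14.71, against 14.43 and 14.38 in the other PC3 mocks. That of RPL29 was 13.35, against 13.01 and 13.23. For RPL8 too this mock was the highest in PC3, but for RPL6, RPS7, RPL24 and RPL17 it was not. Toward the high end of the same array RPS21 was 0.28 and RPS24 0.26. GNB2L1, the array's name for RACK1, a scaffold protein bound to the 40S head, was -0.62 with miR-125b-1-3p and -0.33 to 0.29 on the other 7 arrays. No member probe held the 7 bases that pair with the miR-125b-1-3p seed (TAACCCG), which 21 of all 58201 probes held.

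**Figure D4:**
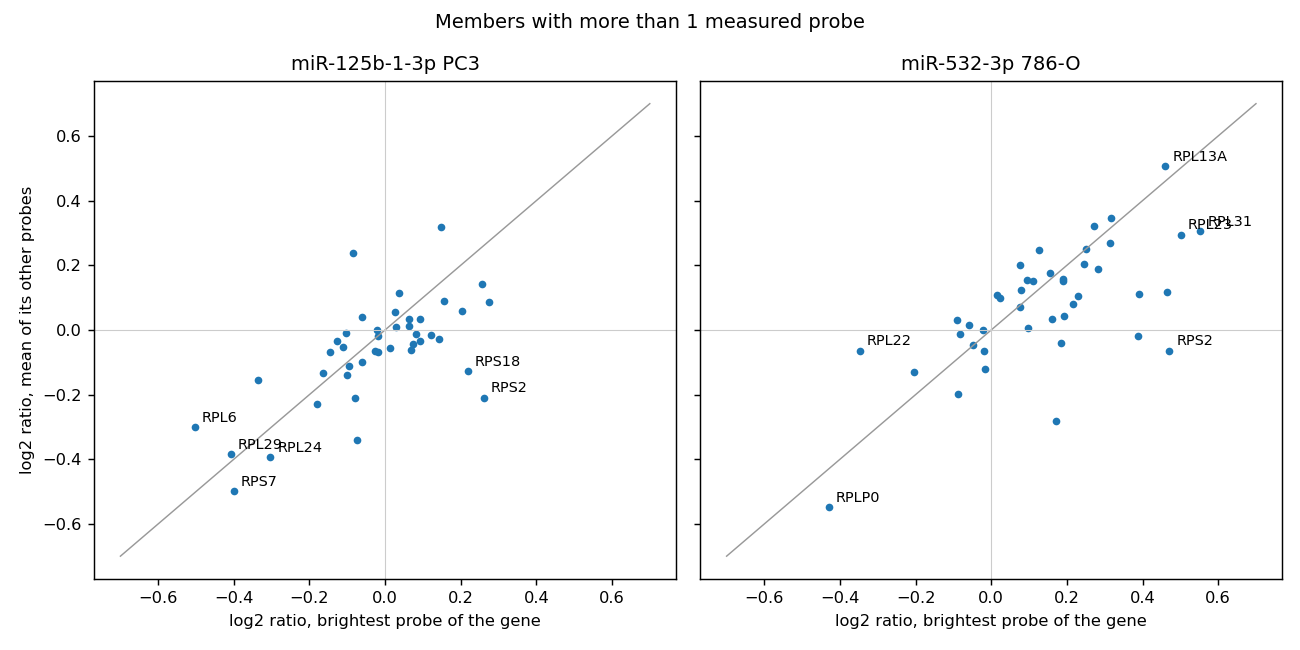
For the 42 members with more than 1 measured probe, the log2 ratio of the brightest probe (horizontal axis) against the mean of the other probes (vertical axis), with miR-125b-1-3p (left) and miR-532-3p (right). The grey line marks equality. RPL6, RPS7, RPL29 and RPL24 on the left and RPLP0 on the right are low on both axes, while RPS2 lies far below the line.

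Probes of a gene were set against each other in place of the missing replicates. Over the 42 genes with further probes, 76 probes in all, the brightest probe and the mean of the others had the same sign in 41 genes with bisamide for 48 h and in 30 to 36 genes on the other arrays. With bisamide for 48 h every brightest probe was above 0, so the 41 only counts the genes whose other probes had a mean above 0. Across these genes Pearson's r was 0.66 on the arrays of miR-125b-1-3p and miR-532-3p, 0.55 on that of miR-140-5p and 0.34 to 0.40 on the other 5 arrays. Probes of a gene share the RNA, the labelling and the array, and genes are not independent replicates.

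The arrays of the 2 strands of miR-532 gave the widest SD among members. Their 3 lowest members were different genes, while at the high end RPS2, RPL31 and RPS28 were above 0.3 with either strand. With miR-532-3p the lowest member was RPLP0, the core of the P stalk that recruits elongation factors and a common reference gene. RPLP0 read 0.21 at both bisamide times, 0.13 in C4-2, -0.02 in PC3 with the miRNA, 0.04 and -0.43 in 786-O (5p and 3p strand) and 0.09 and 0.22 in T24 (5p and 3p strand). It was thus near or above 0 on 7 arrays and low on 1. Its second probe gave -0.55 with miR-532-3p and -0.12 to 0.24 elsewhere.

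That second probe holds, at its 3′ end, the 7 bases that pair with the miR-532-3p seed. It is shown because it belongs to the lowest member of this array, and it was looked for after the values were seen. The probe has 60 bases, lies on GRCh37 chr12:120636503-120636676 (minus strand) and covers more genome than its own length, so it crosses a splice junction. Its last 30 bases follow, with the match in capitals.
RPLP0: agctgatcaagactggagacaaaGTGGGAG
Among all 58201 probes 239 (0.411%) held these 7 bases, and this was 1 of 158 member probes. The brighter RPLP0 probe did not hold them. The miR-532-5p match (AAGGCAT) was in 1 member probe, of RPL14, whose ratio with miR-532-5p was -0.04, and the matches for miR-199-3p and for both strands of miR-140 were in none. Probes cover a small part of each mRNA, so the rest of the mRNA was not searched.

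RPL22, a 60S protein that also binds other RNAs, was -0.35 with miR-532-3p on its brightest probe and -0.06 on a fainter probe. Higher members on this array were RPL12 (0.65), RPL31 (0.55, second probe 0.30), RPL23 (0.50, second probe 0.29), RPS2 (0.47, further probes -0.03 and -0.10), RPL13A (0.46, further probes 0.47 and 0.54) and RPL14 (0.42). RPL31, which lies by the exit tunnel, read 0.26, 0.37, 0.25, -0.08, 0.53, 0.55, -0.14 and 0.25 in the order of the arrays (bisamide 24 h and 48 h, C4-2, PC3 with the miRNA, 786-O with the 5p and the 3p strand, T24 with the 5p and the 3p strand). It had the widest range of all members, 0.69, and was high on both 786-O arrays and below 0 on the arrays of miR-125b-1-3p and miR-140-5p.

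With miR-532-5p the lowest members were RPL26 (-0.42, second probe -0.27), RPS4X (-0.38) and RPL7 (-0.36). RPL26, which binds p53 mRNA, was -0.38 with miR-140-3p too, but there its second probe read 0.02. RPL23A, at the docking site of the signal recognition particle, was -0.35 with miR-532-5p, with -0.45 and -0.46 on 2 further probes and 0.16 on a faint further probe. RPS2 (0.54), RPL31 (0.53, second probe 0.23) and RPS28 (0.34, second probe 0.25) were highest. The RPS2 value was not shared by its other probes, which gave -0.07 and -0.19.

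In T24 cells the arrays of the miR-140 strands differed most at RPL27 (0.27 with the 5p and -0.23 with the 3p strand) and at RPL26 (0.11 and -0.38), both 60S genes. On its second probe RPL26 was 0.31 and 0.02. RPL23, a 60S protein that binds MDM2, was 0.69 with the 5p and 0.39 with the 3p strand, with 0.53 and 0.43 on its second probe. RPL24 was 0.26 and -0.13. The lowest members with miR-140-5p were RPL23A (-0.23), RPL3 (-0.22), whose product forms part of the catalytic center, and RPS4X (-0.21), and the highest beside RPL23 were RPS21 (0.46) and RPL35A (0.44). With miR-140-3p RPL26, RPL17 (-0.31, further probes 0.05 and -0.13) and RPL27 (-0.23) were lowest, and RPS15 (0.39), RPL23 and RPS21 (0.38) highest. In C4-2 cells with miR-199-3p the lowest were RPL36 (-0.27), RPL9 (-0.21) and RPL11 (-0.16), and the highest RPL23 (0.42, second probe 0.27), RPS2 (0.30) and RPS20 (0.25).

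Some members stood above 0 on every array, against mocks of 4 lines. RPL23 had the highest median over the 8 arrays, 0.40, and ran from 0.16 to 0.69. It was followed by RPS2 (0.39), RPS21 (0.30), RPS28 (0.30) and RPS18 (0.29). These 5 genes, with mean log2 intensities of 14.58 to 15.48, were among the 21 of the 75 members that were above 0 on all 8 arrays. Treated cells were always in Cy5, and on some arrays a climb with brightness was left after loess. Dye, brightness and treatment therefore cannot be told apart in this constant sign. No such count is given here for all genes or for the equally bright genes, so the 21 is read as no result about the members. The other probes of RPS18 were below 0 on some miRNA arrays. The second probe of RPS21 read lower than its brightest on every array, down to 0.00 with bisamide for 48 h and -0.03 with miR-199-3p. RPS4X (-0.15), RPS9 (-0.09), RPL17 (-0.08) and RPL7 (-0.06) had medians among the lowest, and each was above 0 on 1 to 3 arrays. RPS2, a 40S protein at the mRNA entry, was the only gene whose measured probes lay over 0.5 apart on 3 or more arrays, with 5. Its brightest probe read 0.26 to 0.54, its next -0.15 to 0.11 and its dimmest -0.27 to -0.03. The widest ranges over the arrays after RPL31 were those of RPL6 (0.66), RPLP0 (0.65), RPL12 (0.64) and RPL8 (0.61).

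By subunit, the medians of the 30 genes of the 40S and the 42 of the 60S were 0.14 and 0.12 with bisamide for 24 h, 0.19 and 0.20 for 48 h, 0.05 and 0.00 with miR-199-3p and -0.00 and 0.01 with miR-125b-1-3p. On the 786-O arrays they were 0.03 and 0.01 (miR-532-5p) and 0.15 and 0.14 (miR-532-3p), and on the T24 arrays 0.19 and 0.11 (miR-140-5p) and 0.10 and 0.05 (miR-140-3p). The gap was largest with miR-140-5p. In the P stalk, RPLP1 and RPLP2, the acidic proteins carried by RPLP0, did not share its low value with miR-532-3p, at 0.02 and 0.23. RPLP1 stayed between -0.10 and 0.14 on all arrays and RPLP2 between -0.04 and 0.23.

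Among 8 ribosomal proteins known to bind MDM2, all 8 were above 0 at both bisamide times and with miR-140-5p, with medians of 0.11, 0.16 and 0.17, where 71, 75 and 58 of the 75 members were above 0, so the count is no result about these 8 genes. On the other arrays 2 to 4 of 8 were above 0. RPL5 read 0.12, 0.16, -0.05, -0.15, -0.03, 0.11, 0.26 and -0.08 in the same order. RPL11, its partner in the 5S particle, read 0.06, 0.11, -0.16, -0.01, -0.08, -0.07, 0.04 and -0.18. Both stayed within 0.3 of the mock on every array. Among 23 measured genes that carry small nucleolar RNAs in their introns, the medians were 0.15 and 0.19 with bisamide and 0.03 to 0.19 with the miRNAs.

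The members with a TOP tract at a listed start had a higher median than the 16 matched genes without it on all 8 arrays. The difference was small, for example 0.14 against 0.09 with bisamide for 24 h, 0.21 against 0.15 for 48 h, 0.01 against -0.08 on the miR-125b-1-3p array and 0.02 against -0.07 on the miR-532-5p array. Both classes had a mean log2 intensity with a median of 14.2. The start used in these cells was not measured.

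Genes outside the rule that belong to the ribosome or to its control were listed for comparison. FAU, whose product releases the 40S protein RPS30, read 0.16, 0.13, 0.00, 0.12, 0.02, 0.11, 0.18 and 0.09 in that order. It thus stayed near the members. The 8 paralogs with L in the name after the number, of which 6 to 8 were measured on an array, had medians below 0 on all 8 arrays, -0.03 to -0.19. RPL7L1 was -0.86 and -0.40 in 786-O (5p and 3p strand) and -0.35 in C4-2, and otherwise -0.10 to -0.00. RPL22L1, which can replace RPL22, was -0.47 with miR-532-5p and 0.25 with miR-532-3p on its only probe. With miR-532-3p RPL22 itself was -0.35 on its brightest probe but -0.06 on its fainter probe. RPS27L, a p53 target, was -0.42 with miR-140-5p. RPL36AL ran from -0.27 to 0.05, and RPL26L1 from -0.19 to 0.16. RPL39L was well above background in both channels on 5 arrays and RPL3L on 3, so no range is given for them. RPL10L ran from -0.15 to 0.26, and its transcript is close to that of RPL10, so the source of its signal is uncertain.

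Translation factors and other TOP mRNAs departed from the members on the miR-125b-1-3p array. Of 23 genes 21 were below 0 there, 1 was below -0.5 (against 0.883% of all genes) and the median was -0.14. By comparison 38 of the 75 members, 54.4% of all genes and 62.7% of the equally bright genes were above 0 on that array. EIF3K, a subunit of initiation factor eIF3, was -0.55 there and -0.69 on the miR-532-5p array. EEF1A1, the factor that brings aminoacyl-tRNA to the ribosome, was 0.31 with bisamide for 24 h and 0.57 for 48 h, the only gene of this list past 0.5 under bisamide, and TPT1 was 0.24 and 0.41. At the low end under bisamide EIF4A1, the RNA helicase of the cap-binding complex, was -0.21 and -0.14, HNRNPA1 -0.05 and -0.20 and EIF3K -0.13 and -0.06. EIF4A1 was below 0 on all 8 arrays, from -0.34 to -0.14. EIF4B had the highest median over the arrays, 0.22, followed by EIF3L with 0.20, and EIF4A2 (-0.30) and EIF4A1 (-0.23) the lowest. NPM1, which shuttles ribosomal subunits out of the nucleolus, was -0.58 and -0.52 in 786-O (5p and 3p strand), and -0.13 to 0.15 elsewhere. The medians of the list were 0.07 and 0.09 with bisamide, below those of the members.

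Ribosome assembly factors had their lowest median with miR-532-5p, -0.22, where 30 of 34 were below 0 and 6 (17.6%) were below -0.5, against 3.67% of all genes. These were NOP56 (-0.95), RRS1 (-0.87), NOLC1 (-0.65), WDR12 (-0.64), NHP2 (-0.63) and DDX21 (-0.59), named after their values were seen. NOP56 is a core protein of the box C/D particles that guide methylation of ribosomal RNA, RRS1 brings RPL5 and RPL11 to the young 60S subunit, and NHP2 belongs to the box H/ACA particles. A single factor, TSR1, which acts in late 40S assembly, was above 0.5 there (0.69). The ribosomal protein genes themselves had a median of 0.03 on that array. With bisamide the medians of the assembly factors were 0.00 and 0.04, NOP56 was -0.33 and -0.32, NOLC1 -0.22 and -0.23, and TSR1 0.23 and 0.37. SBDS, which frees eIF6 from new 60S subunits, was -0.85 with miR-532-3p, and in T24 it was -0.56 (5p strand) and -0.75 (3p strand).

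RNA polymerase I, which makes the large ribosomal RNAs, had medians of 0.02 and -0.01 over 16 genes with bisamide. POLR2L, a subunit shared by all 3 nuclear polymerases, was 0.36 and 0.67 there, and POLR2H, also shared, was -0.36 and -0.42 and reached -1.38 with miR-532-3p. The 15 genes of the mTOR and 4E-BP list had medians of 0.03 and 0.04 with bisamide, and 7 and 6 of them were below 0. At the low end EIF4EBP2, a relative of EIF4EBP1, was -0.37 and -0.22, RHEB, the activator of mTOR complex 1, -0.30 and -0.14, and EIF4E, the cap-binding protein, -0.23 and -0.20. At the high end DDIT4, a stress-induced inhibitor of mTOR complex 1, was 1.75 with bisamide for 24 h and 0.57 for 48 h. EIF4EBP1, which holds back cap-dependent initiation, was 0.80 and 0.56, and SESN2, another stress-induced inhibitor of mTOR complex 1, was 0.70 and 0.25. With miR-199-3p the same list had its lowest median, -0.17, with EIF4E at -1.15, DDIT4 at -1.07 and EIF4EBP1 at -0.59. The ribosomal protein genes had medians of 0.12, 0.19 and 0.02 on those 3 arrays.

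The Cy3 channels allowed the untreated level of each member to be set against itself in 4 lines. The log2 Cy3 signal differed between the highest and the lowest line by a median of 0.58 over the 75 genes (range 0.10 to 1.57), close to 0.62 for the 134 other genes of the same brightness. More than 1 log2 unit separated the lines for 4 members (5.33%) and 28 of those other genes (20.9%). Mocks of the same line differed by a median of 0.14 in PC3 (3 arrays), 0.04 in 786-O and 0.05 in T24 (2 arrays each, which may hold the same RNA), and C4-2 had 1 array. For 69 of 75 members (92%) the lines differed by more than the widest range within a line, and so they did for 119 of the 134 other genes of the same brightness (88.8%). A difference over 4 lines is set there against ranges of 2 or 3 arrays, so the count is read as no result about the members.

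RPS24, a 40S protein mutated in Diamond-Blackfan anemia, differed most. Its level in PC3 mocks was 15.12, 15.10 and 15.21, in C4-2 14.35, in 786-O 13.98 and 14.01, and in T24 13.57 on both arrays. PC3 was thus 2.98-fold above T24, and no range within a line reached the step to the next line. RPL18 ran the other way, from 12.34 in PC3 over 12.88 in C4-2 and 13.16 in 786-O to 13.72 in T24, 2.61-fold. RPS19, the gene most often mutated in Diamond-Blackfan anemia, was 13.48 in C4-2, 13.61 in PC3, 14.10 in 786-O and 14.53 in T24. C4-2 and PC3 lay 0.13 apart, about the range within PC3.

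RPL26 was lowest in PC3 (13.38) and between 14.21 and 14.41 in the other 3 lines, and its second probe kept PC3 lowest (13.14) but put T24 highest (14.43). RPS16 was 13.44 in PC3 and 14.07 to 14.40 in the others. RPS19 kept T24 highest on its second probe (14.09), where PC3 was lowest (12.97) and C4-2 next (13.11). RPS24, RPL18 and RPS16 rest on 1 measured probe each. RPLP0 was 14.67 in PC3 against 13.89 in T24, and RPS4X, from the X chromosome, 13.38 against 13.82. PC3 held the lowest level of 34 members and the highest of 20.

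**Figure D5:**
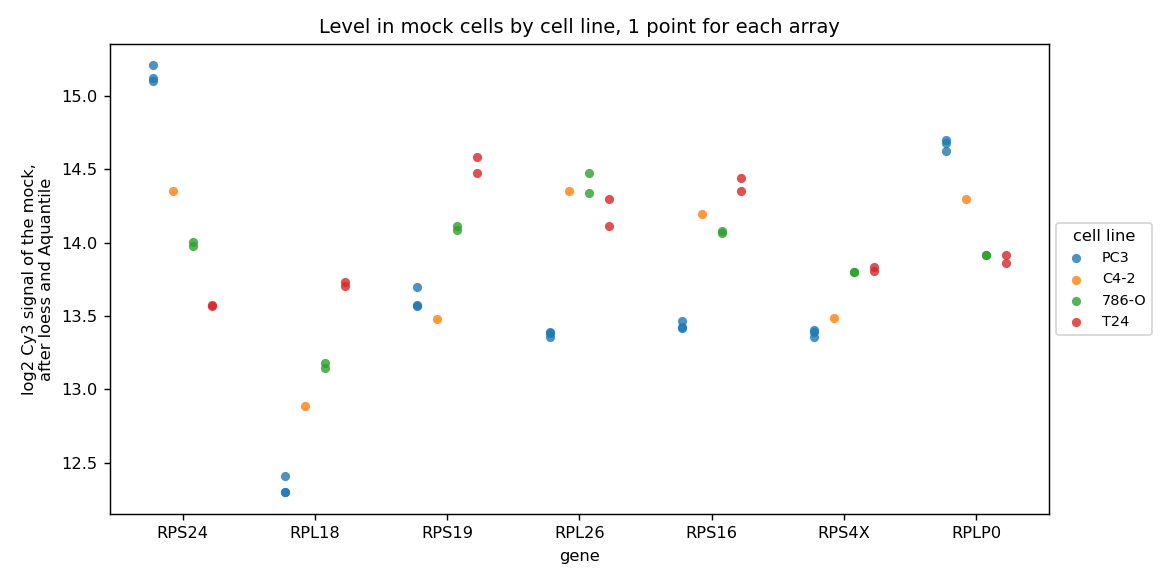
Log2 Cy3 signal of the mock (vertical axis), after loess and scaling between arrays, for the 5 members that differ most between lines and for RPS4X and RPLP0, with 1 point for each array and a colour for each cell line. RPS24 falls and RPL18 climbs from PC3 to T24, and points of the same line lie close together.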

How the data were processed

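The authors hybridised mock RNA (Cy3) and treated RNA (Cy5) to 8 two-color Agilent human 60K arrays on 1 slide, and deposited Feature Extraction (version 11.5.1.1) intensity values for each spot and a table of log10 ratios that equals the scanner's ratio. From the intensities, mean signals were corrected with normexp (offset 50) and centred by loess within each array in limma 3.58.1 (R 4.3.3), with control spots at weight 0 and outlier spots left out. Spots of a probe were averaged, and a gene was represented by its brightest probe. Counts took log2 ratios past 0.5 in probes well above background in both channels. "Equally bright" genes lay between the 10th and 90th percentile of the members' mean intensity. Mock levels are Cy3 signals after loess and Aquantile. Names followed a rule of extremes: on each array the 3 lowest and 3 highest members, over arrays the 5 at each end and the 5 widest, 5 between lines, probes that disagree, and set genes. A few genes that met the rule are not reported here. From the other lists, the 2 lowest and 2 highest with bisamide or by median were due, and further genes were picked on their values. Members and lists were chosen with earlier results of these data known. The normalization was run again after known shifts were put into the members' measured Cy5 signals on both bisamide arrays. How much of each shift came back is not reported here. The number of arrays limits the precision: with 1 array a group, no test was run. RPL13A and RPL21 each have a probe placed on chromosome 10, off the gene's own chromosome, and near-identical copies of these genes cannot be told apart by probes.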

Additional observations from a re-analysis of the deposited data

How the results depend on the processing

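No paired analysis was possible because no group has a second array, and the slide could not serve as a block because all arrays share it. Each series of 8 values runs over the bisamide arrays (24 h, then 48 h), C4-2, PC3 with its miRNA, 786-O with the 5p and the 3p strand, and T24 with the 5p and the 3p strand. The cause of each change was not tested unless the setting itself gives it. Member medians were 1.18, 1.27, 0.98, 0.93, 0.051, 0.97, 1.34 and 1.26 when arrays were centred on their median with no loess, which leaves the intensity trend in. In that setting 74, 74, 74, 72, 2, 72, 74 and 74 members were above 0.5 and 0 below -0.5, and RPL6 in PC3 with its miRNA turned to 0.49. The scanner's own ratio gave 0.060, 0.10, 0.031, -0.076, -0.10, 0.067, 0.032 and -0.027, with 0, 0, 0, 1, 0, 1, 1 and 0 members above 0.5 and 1, 0, 0, 1, 2, 0, 0 and 0 below -0.5. Without background correction the medians were 0.18, 0.23, 0.041, 0.021, -0.034, 0.15, 0.17 and 0.099, with 2, 4, 0, 0, 0, 3, 2 and 0 above and 0 below. Offset 0 in normexp gave 0.22, 0.27, 0.15, 0.053, -0.018, 0.25, 0.25 and 0.17, with 4, 6, 1, 0, 0, 7, 4 and 2 above and 0 below. Loess fitted with the members at weight 0 gave 0.15, 0.22, 0.022, 0.00093, 0.057, 0.17, 0.16 and 0.082, with 2, 2, 0, 0, 2, 5, 1 and 0 members above 0.5. Each of these medians lay within the SD of repeated spots of its value in the report, though that SD does not measure the precision of a median over genes. Averaging all probes of each gene moved 1 median, that of miR-140-5p, to 0.093, and left 0 members below -0.5 and 0, 0, 0, 0, 0, 1, 1 and 1 above. Subtracting the median of equally bright genes gave 0.028, 0.10, 0.055, -0.11, -0.071, 0.12, 0.078 and -0.013, with 0, 0, 0, 3, 1, 0, 0 and 0 below and 0, 1, 0, 0, 0, 2, 1 and 0 above. Subtracting the gene's own median on the remaining 7 arrays gave 0.065, 0.15, -0.095, -0.099, -0.087, 0.044, 0.043 and -0.032, with 1 member below on each of the arrays of miR-125b-1-3p and miR-532-3p and 0 above on any array. At a size of 1.0 in place of 0.5, 0 members passed in either direction on any array. Both looser filters on background changed no count or median. The count of members that differed between mock lines by more than within a line, 69 in the report, was 74 with median centring of the Cy3 signal and 70 relative to the members' own median.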

Other observations

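Probes named for ribosomal protein pseudogenes gave a further view of the same sequences. Of 23 such names, 18 were well above background in both channels of all arrays, and 15 of these had a parent gene among the members. Their median log2 ratios were 0.04 and 0.10 with bisamide for 24 h and 48 h, -0.01 with miR-199-3p and -0.02 with miR-125b-1-3p. In 786-O they were -0.17 (5p strand) and 0.07 (3p strand), and in T24 0.06 (5p strand) and -0.00 (3p strand). The median difference from the parent gene's value was below 0 on all 8 arrays, from -0.05 with miR-199-3p to -0.21 with miR-532-5p. The 15 probes had mean log2 intensities of 6.48 to 14.35, against 13.43 to 15.48 for the brightest probes of the parents. Brightness was thus not matched in this difference, and its part in the common sign was not tested. Whether these probes read the pseudogenes or the mRNA of the parent gene was not tested.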
